A study of Drosophila melanogaster with 3 samples.

Results

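In S2 cells, 9351 places on the RNA carried a peak of the exon junction complex (EJC) in the eIF4AIII/Y14 and Btz/eIF4AIII purifications and none in the Y14/eIF4AIII purification. These loci were selected on the 3 deposited peak lists themselves. Peaks of the same strand that overlapped by 1 bp or more were merged, and merged loci with a peak from the first and second list and none from the third were kept. They are written below as the Y14/eIF4AIII-negative loci, which speaks only of that peak list. They made up 14.8% of the 63358 merged loci and 68.7% (95% interval 67.9 to 69.5) of the 13611 loci that had a peak in both eIF4AIII/Y14 and Btz/eIF4AIII. The remaining 4260 of those 13611 loci had a peak in all 3 lists.

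The EJC is deposited on mRNA by the spliceosome a short way upstream of the exon-exon junction and marks the RNA as spliced until a translating ribosome strips it off. eIF4AIII is a DEAD-box RNA helicase that clamps the RNA, Y14 together with its partner Mago locks that clamp, and Btz (Barentsz) binds eIF4AIII at the periphery of the complex. In Drosophila the complex is known for its role in the localization of oskar mRNA in the oocyte.

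All 3 libraries came from S2 cells, a Drosophila melanogaster line with hemocyte-like properties, that carried a copper-inducible tagged protein, grew for 72 h and were then held for 2 h in 100 µg/ml cycloheximide, an inhibitor of translation. The eIF4AIII/Y14 library was captured through tagged eIF4AIII and then endogenous Y14, the Btz/eIF4AIII library through tagged Btz and then endogenous eIF4AIII, and the Y14/eIF4AIII library through tagged Y14 and then endogenous eIF4AIII. The peak list used as eIF4AIII/Y14 was assigned by its sample's label, while the track name inside it mentions Y14 and no eIF4AIII. Between the captures, RNA was trimmed for 15 min with micrococcal nuclease (MNase), at 0.5 units for eIF4AIII/Y14 and Btz/eIF4AIII and at 0.3 units for Y14/eIF4AIII. The purifications had 1 library each, so differences between purifications or between classes of loci were not open to a test, and p-values are not printed. Intervals are 95% intervals over loci, exact binomial for shares and from order statistics for medians. They treat loci as independent and cover counting error only.

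The lists held 34945, 36393 and 16094 peaks in the order eIF4AIII/Y14, Btz/eIF4AIII and Y14/eIF4AIII. The purifications behind the Y14/eIF4AIII-negative loci shared the MNase dose, and the list they lacked was the shortest and had the lower dose. The tagged protein, the MNase dose, the length of the list and sequencing depth cannot be told apart as sources of the missing peak. Peak depth below is the deposited value, which behaves as a mean number of reads per base of the peak. It is not scaled between libraries, so depth was compared only within a list. Peaks could not be assigned to genes, because the sequence names are those of release 5 of the genome and the annotation used here is of release 6. Coordinates are release 5 by sequence names, 1-based.

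The Y14/eIF4AIII-negative loci were short stretches with mostly 1 peak of either list. A single eIF4AIII/Y14 peak met a single Btz/eIF4AIII peak at 8998 of them, or 96.2%, against 91.4% of all loci of both lists. At loci of all 3 lists this share was 80.9%. A Y14/eIF4AIII peak can join neighbouring peaks into 1 merged locus, so this share is tied to the rule. The negative loci took up 9666 eIF4AIII/Y14 peaks, 27.7% of that list with 34.8% of its summed depth. They also took up 9405 Btz/eIF4AIII peaks, 25.8% of that list with 23.1% of its summed depth. The merged loci had a median width of 59 nt (interval 58 to 60; quartiles 42 and 84 nt) and ran from 1 to 544 nt. The deepest eIF4AIII/Y14 peak of a locus had a median width of 33 nt and the deepest Btz/eIF4AIII peak one of 51 nt. At all loci of both lists these medians were 35 and 56 nt, and over the whole lists peaks had median widths of 31 and 53 nt. Both lists had the same MNase dose, and the source of their difference in width was not tested. The Btz/eIF4AIII peak was the wider at 73.4% of the negative loci. At loci of all 3 lists the deepest peaks had median widths of 40 and 72 nt, and the Btz/eIF4AIII peak was the wider at 74.2%. Wider peaks meet a peak of another list more easily, so the widths are tied to the rule that chose the loci.

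The ends of the peaks showed where the lists coincided and where Btz/eIF4AIII reached further. Over the 8998 loci with 1 peak of each list, the Btz/eIF4AIII 5′ end lay at a median of -1 nt from the eIF4AIII/Y14 5′ end (quartiles -25 and 2 nt, upstream negative) and its 3′ end at a median of 4 nt (quartiles 0 and 14 nt). The Btz/eIF4AIII peak began further upstream at 52.9% of the loci and ended further downstream at 60.7%, against 53.5% and 59.8% of all loci of both lists with 1 peak of each. The eIF4AIII/Y14 peak lay within a longer Btz/eIF4AIII peak at 54.4% of the loci, whereas the reverse held at 13.7%, against 54.6% and 13.6% of all such loci. The Btz/eIF4AIII peak was shifted downstream as a whole at 17.5% and upstream at 12.0%, against 17.0% and 11.9%. All such loci include the negative loci, and these shares lay close to theirs. At loci of all 3 lists with 1 peak of each, the Btz/eIF4AIII peak began further upstream at 54.9% (53.3 to 56.6). It ended further downstream at 57.6% (55.9 to 59.2).

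Ends that coincided to the base formed a sharp spike in both distributions. The 5′ ends were identical at 1708 loci, 19.0% (18.2 to 19.8), and the 3′ ends at 1865 loci, 20.7% (19.9 to 21.6). Among all loci of both lists with 1 peak of each, which include the negative loci, these shares were 18.9% and 21.6%. At loci of all 3 lists they were 18.6% (17.3 to 19.9) and 23.9% (22.5 to 25.4). An offset of exactly 1 nt, in either direction, was found at 540 negative loci for the 5′ end and 564 for the 3′ end. Both ends coincided at 215 negative loci, 2.39% (2.08 to 2.73), against 4.06% (3.43 to 4.78) at loci of all 3 lists.

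**Figure D1:**
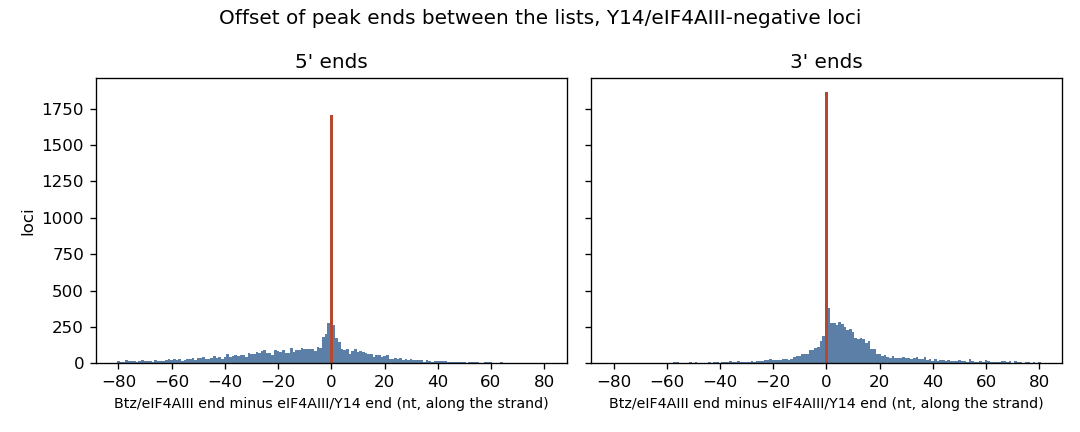
Number of Y14/eIF4AIII-negative loci (y axis) at each offset between the Btz/eIF4AIII and the eIF4AIII/Y14 peak end in nt (x axis, upstream negative), for 5′ ends (left) and 3′ ends (right) of the 8998 loci with 1 peak of each list. The red bars at 0 hold 1708 and 1865 loci, and 352 and 228 loci lie beyond the 80 nt drawn.

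Which end coincided went with the width of the eIF4AIII/Y14 peak. At 624 loci this peak was 1 to 9 nt wide, and there 91.8% (89.4 to 93.9) shared the 5′ end with Btz/eIF4AIII, whose peak had a median width of 23 nt. Only 11.2% of them shared the 3′ end. At 10 to 19 nt the 5′ end was shared at 47.0% of 727 loci and the 3′ end at 11.7%. Among 2156 loci with a peak of 20 to 29 nt neither end was often shared, with 11.4% for the 5′ end and 10.4% for the 3′ end. From 30 to 39 nt the order turned, with 10.2% for the 5′ end and 30.6% (28.6 to 32.7) for the 3′ end of 2043 loci. At 40 to 59 nt these shares were 9.55% and 25.7% of 2387 loci, and at 60 nt or more 10.6% and 23.2% of 1061 loci. Very short eIF4AIII/Y14 peaks were thus anchored at their 5′ end, and peaks of 30 nt or more were more often anchored at their 3′ end. Among all loci of both lists with 1 peak of each, which include these, the shares were close, with 91.9% for the 5′ end at 1 to 9 nt and 30.6% for the 3′ end at 30 to 39 nt.

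Many of these anchored ends lay at gaps that both lists had in common. The uncovered bases from 1 peak to the next of the same list and strand are called a gap here, up to a length of 2000 nt, and a gap was taken as shared when both borders were the same base in eIF4AIII/Y14 and Btz/eIF4AIII. Of the Y14/eIF4AIII-negative loci, 1934 or 20.7% (19.9 to 21.5) lay beside such a gap, against 21.0% of all loci of both lists. The gap was downstream at 929 loci and upstream at 1025, and 20 loci had one on both sides. A shared gap followed 47.9% of the loci with identical 3′ ends and preceded 55.9% of those with identical 5′ ends. By definition a locus beside a shared gap has the end next to it in common. With peaks under 10 nt left out of the lists, 10.1% of the loci lay beside a shared gap.

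Loci upstream and downstream of a shared gap were built differently. Upstream of a gap (883 loci with 1 peak of each list), the eIF4AIII/Y14 peak was 39 nt wide in the median and the Btz/eIF4AIII peak 46 nt. Downstream of a gap (944 loci), the median was 10 nt for eIF4AIII/Y14 and 25 nt for Btz/eIF4AIII. The eIF4AIII/Y14 peaks were also deeper upstream, at a median of the 76.1st percentile of their list (73.3 to 78.9) against the 43.6th (40.9 to 46.2) downstream. In Btz/eIF4AIII these medians were closer, at 62.2 (58.7 to 65.2) and 58.2 (55.3 to 60.5). At the 7161 loci with no shared gap the median widths were 34 and 53 nt, and Btz/eIF4AIII reached further by a median of 4 nt at the 5′ end (offset -4 nt) and 5 nt at the 3′ end.

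Both lists had 1469 gaps in common, of which 827 or 56.3% (53.7 to 58.9) had a Y14/eIF4AIII-negative locus on both sides and 342 a locus of all 3 lists on both sides. At 198 gaps a Y14/eIF4AIII peak was present at the upstream locus only, and at 102 gaps at the downstream locus only. Peaks upstream of a shared gap were mostly the wider. Wider spans meet a Y14/eIF4AIII peak more easily, so these counts are tied to the rule. The 827 gaps had a median length of 64 nt (quartiles 59 and 103 nt) and a modal length of 60 nt, after smoothing over 5 nt, and 68.6% were 50 to 75 nt long, against 66.8% of all shared gaps. Introns of up to 2000 nt in the release 6 annotation (Ensembl 115) also have their modal length at 60 nt, and 50.8% of them are 50 to 75 nt long. These are lengths only, and no gap was placed on an annotated intron.

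Beside these 827 gaps the peaks reached far upstream and less far downstream, most unevenly in eIF4AIII/Y14. The base 27 nt upstream of the gap still lay in the bordering eIF4AIII/Y14 peak at 91.9% of the gaps, and in the bordering Btz/eIF4AIII peak at 95.2%. At 40 nt upstream these shares had dropped to 47.6% and 60.2%. On the downstream side, the base 13 nt from the gap was reached by the eIF4AIII/Y14 peak at 32.8% and by the Btz/eIF4AIII peak at 77.3%, and the base at 27 nt at 19.0% and 51.0%. The widths on both sides of a gap summed to a median of 50 nt in eIF4AIII/Y14 (interval 49 to 52) and 80 nt in Btz/eIF4AIII (76 to 84). The eIF4AIII/Y14 peak was wider upstream at 718 gaps and downstream at 107, and the Btz/eIF4AIII peak at 587 and 230. Over all shared gaps the upstream peak was the wider at 84.3% in eIF4AIII/Y14 and at 68.1% in Btz/eIF4AIII.

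**Figure D2:**
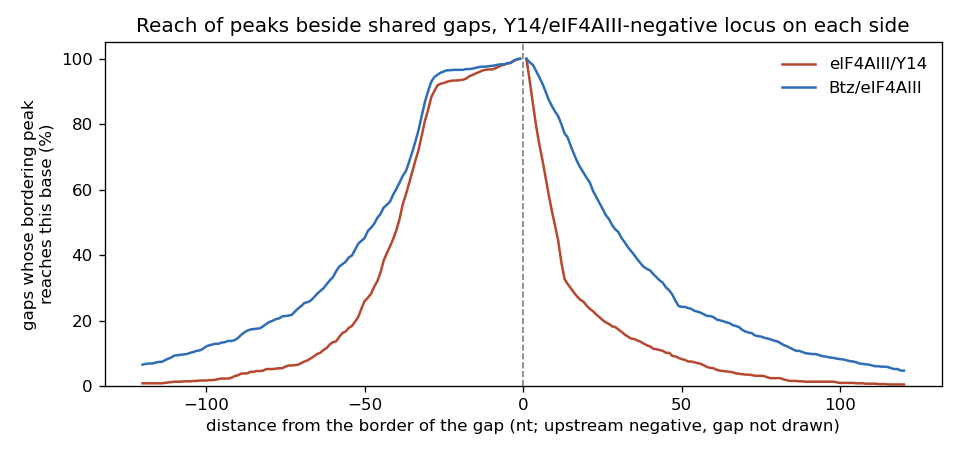
Percent of the 827 shared gaps with a Y14/eIF4AIII-negative locus on both sides (y axis) whose bordering peak reaches a base at the given distance from the gap in nt (x axis, up to 120 nt, upstream negative), for eIF4AIII/Y14 (red) and Btz/eIF4AIII (blue). Both lines stay above 90% to 27 nt upstream (91.9% and 95.2%), while downstream the red line is at 32.8% by 13 nt and the blue line at 77.3%.

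Depth followed the same unevenness. The eIF4AIII/Y14 depth upstream of the 827 gaps was a median of 2.57 times the depth downstream (2.25 to 2.96), higher upstream at 621 gaps, higher downstream at 102 and identical at 104. In Btz/eIF4AIII the ratio had a median of 1.05 (1.02 to 1.08), with 495 gaps deeper upstream, 253 deeper downstream and 79 identical. Over all shared gaps, the upstream peak was the deeper at 77.2% in eIF4AIII/Y14 and at 59.2% in Btz/eIF4AIII. Peaks beside gaps differ in width as well as in depth, and a depth is a mean over the width of its peak.

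The gaps whose least deep bordering peak ranked highest show the uneven eIF4AIII/Y14 widths, while their Btz/eIF4AIII peaks were wider downstream. They were chosen after their values were seen. Ranking by the least deep peak favours gaps deep on both sides, so they do not illustrate the depth ratios. The first is a gap of 62 nt on 3R at 6150902 to 6150963, minus strand. Upstream of it the eIF4AIII/Y14 peak was 31 nt wide with 305 reads per base and the Btz/eIF4AIII peak 32 nt wide with 2692 reads. Downstream, eIF4AIII/Y14 had 2 nt at 301 reads and Btz/eIF4AIII 46 nt at 2060 reads. The upstream peaks thus ended within 1 nt of each other at their far end, while the downstream eIF4AIII/Y14 peak was far shorter than its counterpart. The second gap, 66 nt on 3R at 24946245 to 24946310, minus strand, had upstream peaks of 34 nt with 432 reads in eIF4AIII/Y14 and of 35 nt with 2691 reads in Btz/eIF4AIII. Its downstream peaks were 1 nt with 270 reads and 63 nt with 2187 reads.

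The Y14/eIF4AIII-negative loci were not confined to shallow peaks. Their eIF4AIII/Y14 peaks had a median depth of 73 reads per base (quartiles 25.6 and 177, highest 6274), against 52 for the whole list, and stood at a median depth percentile of 59.3 (58.3 to 60.3). Their Btz/eIF4AIII peaks had a median of 114 reads (quartiles 16 and 351, highest 9208), against 95.3 for the whole list, at a median percentile of 52.9 (51.9 to 54.0). Loci of all 3 lists stood higher in both, at 65.9 (64.3 to 67.7) and 65.3 (63.9 to 66.6). All loci of both lists, which include the negative loci, stood at 61.4 and 56.6. Every such locus met a peak of another list and is represented by its deepest peak. The comparison with the whole list is therefore tied to how the loci were chosen. Within the Y14/eIF4AIII-negative loci, depth in one list did not follow depth in the other, with a Spearman coefficient of -0.02 over 9351 loci, given as a description. At loci of all 3 lists it was 0.12. A locus in the deepest 25% of one list and the least deep 25% of the other was found 1252 times, 13.4% of the negative loci, against 12.4% of all loci of both lists.

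Of the Y14/eIF4AIII-negative loci, 874 or 9.35% (8.76 to 9.95) were in the deepest 25% of both lists, against 11.9% of all loci of both lists. The share of loci without Y14/eIF4AIII fell with depth in Btz/eIF4AIII, from 77.5% (75.9 to 79.1) in the lowest of the 4 depth classes to 61.0% (59.5 to 62.5) in the highest. Along eIF4AIII/Y14 depth it went from 72.9% (71.0 to 74.6) to 64.5% (63.1 to 65.8). In the deepest class of both, 54.2% (51.7 to 56.6) of 1613 loci still had no Y14/eIF4AIII peak. The highest share, 80.1% (76.9 to 83.1), was at loci in the lowest class of Btz/eIF4AIII and the second highest of eIF4AIII/Y14.

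**Figure D3:**
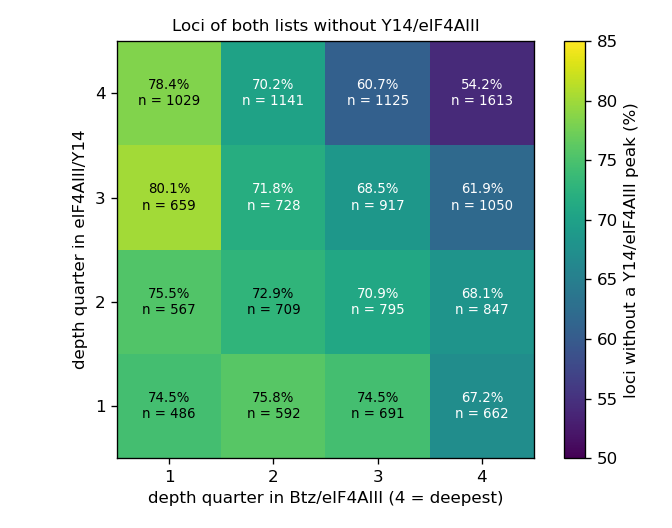
Percent of loci of both lists that have no Y14/eIF4AIII peak (color and numbers), by depth class of 25% in Btz/eIF4AIII (x axis) and eIF4AIII/Y14 (y axis), with the number of loci in each field. The lowest value, 54.2%, is in the deepest class of both, and the fields with the lowest Btz/eIF4AIII class lie between 74.5% and 80.1%.

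The share without Y14/eIF4AIII also fell with width, across a wider range than with depth. A wider span meets a Y14/eIF4AIII peak more easily, so the rule itself ties this share to width. By the span of their eIF4AIII/Y14 and Btz/eIF4AIII peaks, 82.1% (80.8 to 83.4) of the loci of 1 to 45 nt had no Y14/eIF4AIII peak, 77.4% of those of 46 to 65 nt, 68.8% of those of 66 to 101 nt and 46.1% (44.4 to 47.8) of those of 102 nt or more. Among loci in the deepest 25% of both lists these shares were 77.4%, 72.1%, 59.1% and 25.0%. For the least deep 25% of both lists they were 79.2%, 79.7%, 66.0% and 57.8%, the last over 45 loci. Narrow loci thus lacked Y14/eIF4AIII about as often when deep as when shallow, and wide loci less often when deep.

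The Y14/eIF4AIII-negative loci with the highest ranks in both lists were among the deepest 400 peaks of each list, and the nearest Y14/eIF4AIII peak, whose depth is given for each, had 5 to 37 reads per base, against a median of 34 in that list. On 3R at 5455430 to 5455567, minus strand, eIF4AIII/Y14 had 2102 reads per base (rank 186) and Btz/eIF4AIII 1846 reads (rank 247). The nearest Y14/eIF4AIII peak there was 362 nt away with 35 reads. On 2R at 3960632 to 3960739, plus strand, the values were 2149 reads (rank 175) and 1581 reads (rank 329), with a Y14/eIF4AIII peak of 26.0 reads 176 nt away. At this locus both peaks ended at the same base. The 3L locus at 3898004 to 3898083, minus strand, also with a common 3′ end, had 1382 reads (rank 342) and 1533 reads (rank 350), and its nearest Y14/eIF4AIII peak, of 16.6 reads, lay 2384 nt away. On 3R at 231232 to 231295, plus strand, the eIF4AIII/Y14 peak was the wider, 64 nt with 2496 reads (rank 128), against 38 nt with 1512 reads (rank 360) in Btz/eIF4AIII. A Y14/eIF4AIII peak of 5 reads was 587 nt away. On 3R at 25631429 to 25631498, minus strand, the peaks were nearly the same, 67 nt with 1333 reads (rank 359) and 70 nt with 2051 reads (rank 202), and the nearest Y14/eIF4AIII peak, 367 nt away, had 37 reads.

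The widest loci were spans of Btz/eIF4AIII with a short eIF4AIII/Y14 peak inside. The longest, 544 nt on 2L at 22247160 to 22247703, minus strand, was covered over its whole length by Btz/eIF4AIII at 272 reads per base, and eIF4AIII/Y14 had 33.9 reads over 58 nt. The next, 452 nt on 2R at 10050922 to 10051373, minus strand, had 247 reads and, over 26 nt at its 3′ end, 130 reads. The third, 421 nt on 3R at 25630139 to 25630559, minus strand, had 376 reads and 35 reads over 35 nt.

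The nearest Y14/eIF4AIII peak on the same strand was at a median distance of 469 nt (449 to 490; quartiles 154 and 1666 nt). It lay within 100 nt of 1623 loci, 17.4% (16.6 to 18.1), within 1000 nt of 66.2% and beyond 10000 nt for 678 loci, 7.25% (6.73 to 7.79). A single locus, on 2LHet, had no Y14/eIF4AIII peak on its sequence and strand. Distances of 50 to 99 nt were more frequent than shorter ones, with 859 loci against 747 at 0 to 49 nt, 665 at 100 to 149 nt and 531 at 150 to 199 nt. The peak was upstream at 51.6% of the loci (50.6 to 52.6) and, among those within 100 nt, at 53.4% (51.0 to 55.9). The 874 loci in the deepest 25% of both lists had a median distance of 436 nt (387 to 499), and the 362 in the least deep 25% of both one of 486 nt (375 to 577).

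**Figure D4:**
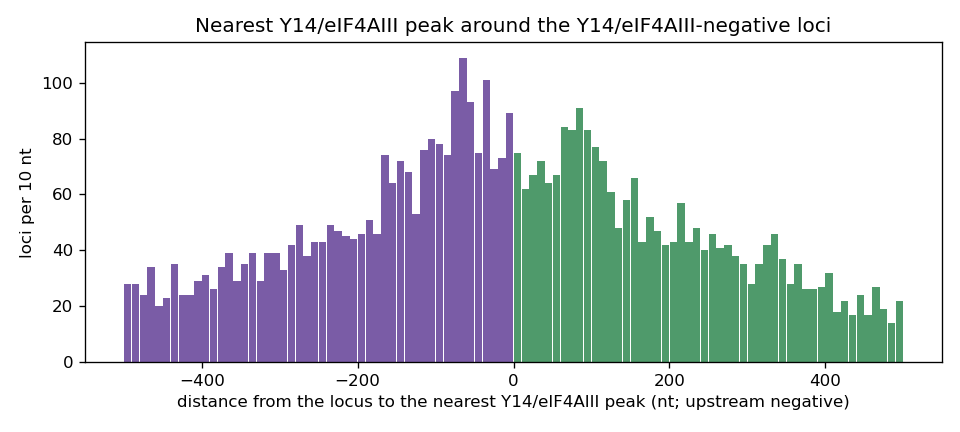
Number of Y14/eIF4AIII-negative loci per 10 nt (y axis) by the distance to the nearest Y14/eIF4AIII peak of the strand in nt (x axis, up to 500 nt; purple upstream, green downstream). The fullest bins are 60 to 69 nt upstream with 109 loci and 80 to 89 nt downstream with 91 loci.

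The other pairs of lists had their missing list closer by, in lists that are longer. Loci of eIF4AIII/Y14 and Y14/eIF4AIII without Btz/eIF4AIII numbered 1535, or 26.5% of the loci of those lists, and their nearest Btz/eIF4AIII peak was a median of 191 nt away. Loci of Btz/eIF4AIII and Y14/eIF4AIII without eIF4AIII/Y14 numbered 2565, or 37.6%, with an eIF4AIII/Y14 peak at a median of 193 nt. The part of list length in these shares and distances was not tested for these pairs.

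Close to the border of the rule, 103 Y14/eIF4AIII-negative loci had a Y14/eIF4AIII peak within 5 nt, while 22 loci counted as found in all 3 lists shared 1 bp with it and 125 shared 5 bp or fewer. The deepest loci just inside were on 2R at 5772866 to 5772935, minus strand, where eIF4AIII/Y14 had 2112 reads per base, Btz/eIF4AIII had 681, and a Y14/eIF4AIII peak 5 nt away had 11, on X at 19522936 to 19523007, minus strand, with 355, 949 and 6 reads at 3 nt, and on 2R at 4820076 to 4820185, plus strand, with 945, 620 and 36 reads at 1 nt. The deepest just outside were all met by Y14/eIF4AIII peaks of a single base. These were on 3R at 5194619 to 5194705, minus strand, where eIF4AIII/Y14 had 137 reads, Btz/eIF4AIII had 461 and the single Y14/eIF4AIII base had 1222, at 25690475 to 25690548, minus strand, with 112, 534 and 8 reads, and at 7033271 to 7033314, plus strand, with 136, 249 and 130 reads. With an overlap of 50% of both peaks required in place of 1 bp, the negative loci numbered 5555.

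The loci farthest from Y14/eIF4AIII, among those in the deepest 25% of both lists, included both sides of 1 shared gap on the unplaced sequence U, minus strand. The locus at 1092214 to 1092260 had an eIF4AIII/Y14 peak of 921 reads per base and a Btz/eIF4AIII peak of 658. The locus downstream of the gap, at 1092089 to 1092160, had 237 reads over 5 nt in eIF4AIII/Y14 and 817 reads over 72 nt in Btz/eIF4AIII. The nearest Y14/eIF4AIII peak was 251954 and 252054 nt away, and between them lay a gap of 53 nt. The locus on 3L at 20775685 to 20775743, minus strand, with 139 and 901 reads, was 191052 nt from a Y14/eIF4AIII peak. On 2L, plus strand, the loci at 3620694 to 3620725, with 221 and 657 reads, and at 13895108 to 13895172, with 198 and 451 reads, were 95739 and 76569 nt away.

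Nearly all Y14/eIF4AIII-negative loci, 99.3%, were on 2L, 2R, 3L, 3R, 4 and X. So were 13450 of the 13611 loci of both lists. Negative loci were 2331 of 3321 such loci on 3R, 2152 of 3139 on 2R and 1734 of 2603 on 3L. They were 1563 of 2285 on 2L, 1318 of 1803 on X and 189 of 299 on the small chromosome 4. The plus strand held 48.0% of the negative loci (46.9 to 49.0), against 47.6% of all loci of both lists. On chromosome 4 it held 62 negative loci against 127 on minus. The strand share of all loci of both lists on chromosome 4 is not given here, so this skew cannot be called particular to the negative loci. On the large arms the share of loci of both lists without Y14/eIF4AIII was lowest on 3L, 66.6% (64.8 to 68.4), and highest on X, 73.1% (71.0 to 75.1). Chromosome 4 had 63.2% (57.5 to 68.7) of 299 loci. The heterochromatic sequences together had 46 of 74 loci, 62.2% (50.1 to 73.2).

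The unplaced sequence Uextra stood apart, with 4 of 59 loci without Y14/eIF4AIII, 6.78% (1.88 to 16.5). It held 2.40% of the Y14/eIF4AIII peaks, against 0.363% of the eIF4AIII/Y14 and 0.673% of the Btz/eIF4AIII peaks. On the other unplaced sequence, U, 14 of 28 loci had none. The part of the uneven list shares in the value of Uextra was not tested.

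**Figure D5:**
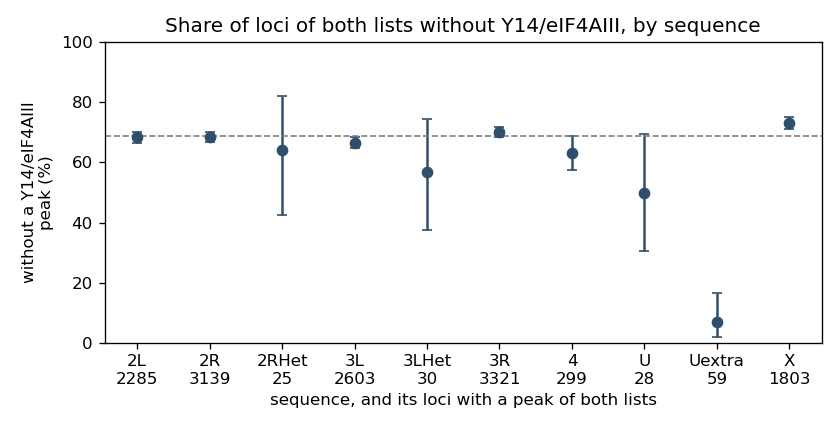
Percent of loci of both lists without a Y14/eIF4AIII peak (y axis) for each sequence with at least 20 such loci (x axis, with their number), with exact 95% binomial intervals and the value over all sequences, 68.7%, as a dashed line. Uextra, at 6.78%, lies far below the others, which run from 50% on U to 73.1% on X.

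Along the strand, the next locus was Y14/eIF4AIII-negative more often after a negative locus than after the other classes given here. After such a locus the next locus on the strand was again one in 23.6% of cases (22.7 to 24.5), compared with 17.6% after a locus of all 3 lists, 14.7% after one of Btz/eIF4AIII alone, 12.1% after one of eIF4AIII/Y14 alone and 10.4% after one of Y14/eIF4AIII alone. They were 14.8% of all merged loci. Loci on either side of a shared gap can follow each other in this way. There were 2206 steps from a negative locus to a negative one, and 827 shared gaps with a negative locus on both sides. The part of these gaps in the steps, and in the runs below, was not tested. Runs of 2 or more held 3863 negative loci, 41.3%. No such share is given for another class, and the next locus after loci of the other pairs of lists is not given either. The longest runs had 8 members, on 2L at 20825712 to 20830073, plus strand, on 2L at 16314451 to 16324532, minus strand, and on 3L at 7894530 to 7904641, minus strand.

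In windows of 10 kb, 3238 held such a locus, with a median of 2 per window, and 594 held 5 or more. The fullest were 2R 15320001 to 15330000, 3R 6140001 to 6150000 and 3R 25630001 to 25640000 with 17 each, then 2L 1170001 to 1180000 and 2R 8040001 to 8050000 with 15 each. None of these windows was without Y14/eIF4AIII, which had 9, 10, 11, 12 and 9 peaks there, against 27 to 39 of eIF4AIII/Y14 and 28 to 34 of Btz/eIF4AIII. In the 3R 6140001 and 2R 8040001 windows all the negative loci were on the minus strand. The strands of other loci are not given for any window named here, so a single strand cannot be called particular to the negative loci. Of the windows with 5 or more, 11 had no Y14/eIF4AIII peak at all. The fullest of these, seen after the counts were made, was 2L 20820001 to 20830000 with 7 loci, all on the plus strand, from 10 eIF4AIII/Y14 and 7 Btz/eIF4AIII peaks. It contains most of the first run named above.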

How the data were processed

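RNA fragments from 3 tandem purifications of the exon junction complex were sequenced. For every library the authors deposited a peak list with strands, named as clipped and merged per the file headers. Per the submitters' processing notes, the tools included Bowtie and SAMtools. Not given in the sources used here: peak caller, threshold, genome build and read number of each library. The signal value deposited for each peak was used as depth, because its product with the peak width was whole, to within 0.001, at 100% of the peaks.

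Loci, end offsets, depth percentiles within a list (ties counted as 0.5), distances, gaps of up to 2000 nt and windows of 10 kb were computed with Python 3.11.15, numpy 2.4.6, pandas 2.3.3 and scipy 1.17.1. The functions were checked on simulated peaks. Loci with several peaks of a list are represented by the deepest. Places named in the text are the 5 loci with the highest lower of their 2 percentiles, the 5 farthest from Y14/eIF4AIII in the deepest 25% of both lists, the 3 widest, the 5 fullest windows and the 3 deepest just inside and just outside the rule. Where other places are named, the text says that they were chosen after their values were seen, apart from the 3 longest runs, chosen likewise. The loci, measures and lists were chosen with earlier results of these data known. Sequences are not printed, since no genome of the files' build was used here.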

Additional observations from a re-analysis of the deposited data

How the results depend on the processing

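The 13 results fixed for these loci were recomputed under 8 alternatives, 104 values in all. Of these, 57 stayed within the 95% interval of the reported value (a count within 1.5 times), 47 moved beyond it and 0 changed sign. Only the end offsets could change sign, since the other results cannot be negative. A shift of an offset to 0 nt was not counted as a change of sign. With overlap of at least 50% of both peaks, there were 5555 loci without Y14/eIF4AIII, 77.6% of the loci of both lists, with a median width of 49 nt, end offsets of 0 nt (5′) and 1 nt (3′), identical 3′ ends at 29.9%, depth percentiles of 67.4 (eIF4AIII/Y14) and 48.2 (Btz/eIF4AIII), a median distance of 391 nt to Y14/eIF4AIII, 25.5% within 100 nt, 2.41% on chromosome 4 and 22.0% beside a shared gap. With the deepest 50% of each list there were 3457 loci, 73.6% of those of both lists, with 69 nt width, a 5′ offset of -9 nt, identical 5′ and 3′ ends at 15.3% and 29.1%, percentiles of 56.5 and 54.3, a distance of 948.5 nt, 11.6% within 100 nt, 2.34% on chromosome 4 and 15.1% beside a gap. With lists of equal length the values were 2361 loci, 59.2%, 66 nt, -8 nt, 15.4% and 29.4%, 56.9 and 54.8, 436 nt, 2.41% on chromosome 4 and 14.6% beside a gap. Without peaks under 10 nt the width was 61 nt, the 5′ offset -3 nt, identical 5′ ends 13.1% and loci beside a gap 10.1%. With Y14/eIF4AIII peaks within 25 nt counted as present, 65.99% of the loci of both lists lacked it, at 508 nt, and 13.96% lay within 100 nt. With those within 100 nt counted, 56.8% lacked it, at 681 nt, and by construction 0% lay within 100 nt. With 1 peak of each list the width was 57 nt and the share without Y14/eIF4AIII 72.3%. The end offsets and the shares of identical ends were taken over such loci throughout. Under this alternative they are the same by construction, yet they are counted among the 57. On 2L, 2R, 3L, 3R, 4 and X alone no value moved. Apart from shorter lists giving fewer loci, the cause of these shifts was not tested. No paired analysis was possible because each purification had 1 library.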
